A study of Mus musculus with 6 samples.

Results

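Genes that the hypoxia-inducible factor (HIF) is known to induce outside glycolysis were followed in cultured mouse natural killer (NK) cells, innate lymphocytes able to lyse virus-infected and tumour cells. The set was a given list of 31 genes, from Vegfa and Car9 to Gys1 and Nos2, which left out glycolysis genes, oxygenases and mitophagy receptors. All 31 were found among the 56953 genes of the count files by gene symbol, Ero1a under its older symbol Ero1l. The cells were wild-type primary NK cells from C57BL/6 spleen, grown for 7 days in medium with recombinant human interleukin-2 (1700 U/ml) under 5% CO2. Hypoxia cultures were held at 1% O2 and normoxia cultures at 20% O2. Each oxygen level had 3 mRNA libraries, labelled as biological replicates 1 to 3. The labels do not say if a replicate was a mouse, a pool of mice or a culture, so the p-values rest on the spread of these 6 libraries, which may be technical. The mice's age is not given in the sources used here.

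HIF is a pair of proteins, an oxygen-regulated alpha subunit (HIF-1 alpha from Hif1a, HIF-2 alpha from Epas1) and a stable partner (Arnt or Arnt2). In ample oxygen, prolyl hydroxylases (the Egln genes) mark the alpha subunit for destruction through the von Hippel-Lindau protein. In low oxygen the alpha subunit escapes, the pair binds DNA at a short core sequence (ACGTG or GCGTG), and target genes are transcribed. Targets outside glycolysis cover blood vessel growth factors, pH control, lipid and glycogen storage, mitochondrial adaptation, protein folding and brakes on growth.

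Library totals lay between 55104810 and 55794698 estimated counts, so 1 count was worth about 0.018 CPM, the count scaled to a common library total. Levels are given as CPM after TMM scaling, which corrects for library composition, and fold changes as hypoxia over normoxia. The NK marker list was present, with a summed level of 17033 to 19926 CPM in hypoxia and 18677 to 20468 CPM in normoxia. Of its 10 genes 1 (Eomes) was lower in hypoxia, where 9.72% of all genes tested were. When the replicate number was fitted as a block, 2 were higher and 5 lower, where 19.2% and 20% of all genes were. In a principal component analysis of log2 CPM, the second component (22.0% of the variance) placed hypoxia replicate 1 at 23.2 and normoxia replicate 1 at 34.97, with the remaining 4 libraries between -20.2 and -11.4.

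After 7 days at 1% O2 the HIF targets did not move as a block. Of the 31 genes, 27 had enough counts to be tested, and each of these had at least 30 counts in every library. Of these, 7 were higher in hypoxia, namely Apln, Ankrd37, Rcor2, Ak4, Fam162a, Cited2 and Mif (threshold 0.05 on the edgeR p adjusted over every gene tested). Both Ddit4 and Plin2 were lower, and the other 18 tested genes did not pass. This main fit treated the libraries as unpaired, and 8 of the 18 passed when the replicate number was also fitted. The main fit called 25.9% of the tested members higher, against 11.2% of the 15591 genes tested. It called 7.41% of the tested members lower, against 9.72% of all genes tested. The median log2 fold change was 0.19 over the 27 genes and -0.0052 over all tested genes. The list was given with earlier results of these data known, so these shares and medians are description. These are bulk libraries, in which fewer cells of a type and less RNA per cell cannot be told apart.

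Same-numbered libraries deviated together, so the replicate number was also fitted as a block (the replicate block). Under that fit 12 members were higher and 5 lower, against 19.2% and 20% of all genes tested. The members gained were Vegfa, Adm, Ndrg1, Narf and Zfp395 as higher, and Angptl4, Gys1 and Bhlhe40 as lower. Without normoxia replicate 1, 13 members were higher and 2 lower (12.3% and 10.2% of all genes), and without both replicate 1 libraries 12 were higher and 3 lower (11.5% and 9.37% of all genes). Leaving out hypoxia replicate 1 gave 5 higher and 2 lower members (7.95% and 6.45% of all genes), hypoxia replicate 2 gave 5 and 2 (7.29% and 5.05%) and hypoxia replicate 3 gave 7 and 2 (9.03% and 7.07%). Leaving out normoxia replicate 2 gave 5 and 2 (7.15% and 5.87%), and normoxia replicate 3 gave 5 and 3 (8.56% and 7.72%).

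Other scalings, tests and filters were also applied. DESeq2 size factors gave 7 higher and 2 lower members (11.1% and 9.99% of all genes), DESeq2's Wald test 8 and 3 (11.4% and 11.2%) and limma-voom 7 and 2 (11.3% and 9.76%). Without a filter on low counts there were 7 and 3 (5.92% and 5.36%), and with a stricter filter 8 and 2 (12.8% and 11.2%). When only library totals were scaled there were 10 and 2 (15.3% and 6.4%), and the split over all genes was 2384 higher against 998 lower, where TMM scaling gave 1745 and 1516.

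**Figure D1:**
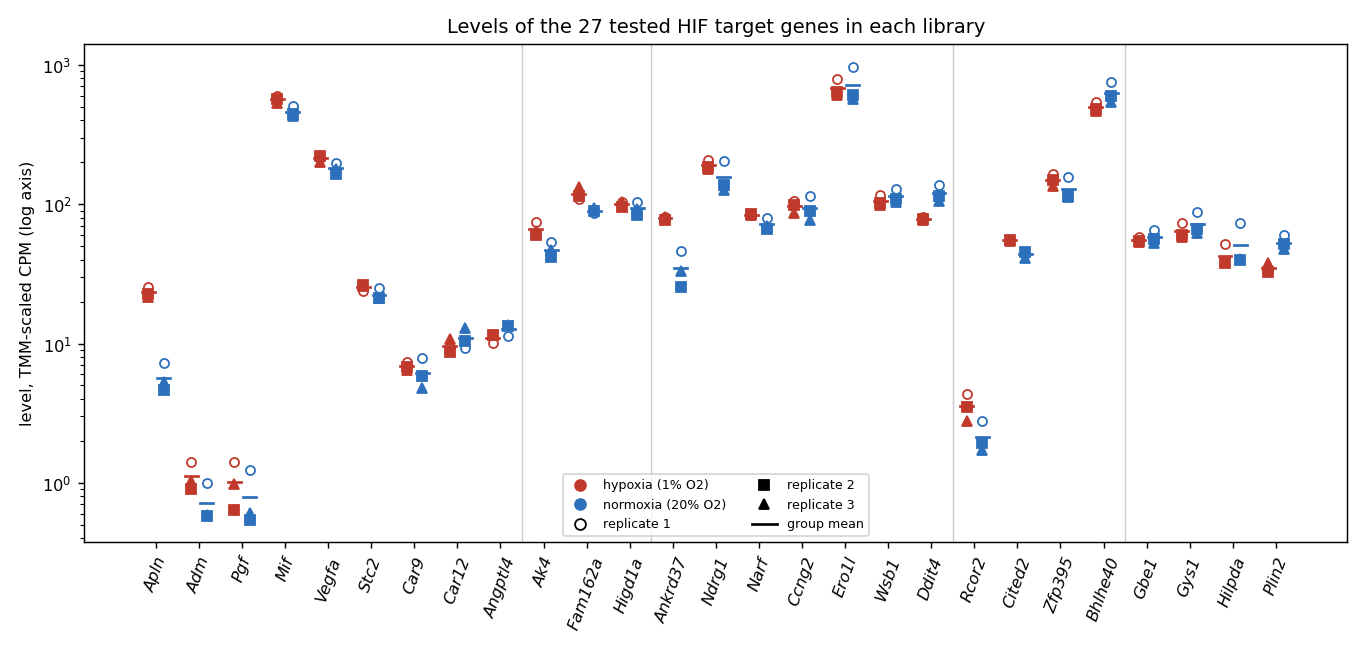
TMM-scaled CPM (log axis) of the 27 tested HIF target genes, hypoxia (red) left of normoxia (blue), with each replicate as its own symbol, group means as bars and grey lines between role groups. Apln and Ankrd37 show the widest gaps between groups, and replicate 1 (open circles) is the highest library for 23 of 27 genes in normoxia and 19 of 27 in hypoxia.

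The secreted and surface proteins of the list include the angiogenic peptides and factors, the stanniocalcins and the carbonic anhydrases. Apln encodes apelin, a secreted peptide ligand that acts on blood vessels and heart. Its level was 25.6, 22.6 and 21.7 CPM in the hypoxia libraries, against 7.20, 4.62 and 5.26 CPM in the normoxia libraries. Every hypoxia library lay above every normoxia library. The difference was 4.10-fold, the largest of the list (log2 fold change 2.03 with SE 0.15, edgeR adjusted p = 3.0e-05). The gene is shown here with its promoter window because its fold change was the largest although the window holds neither HIF core. The window (RefSeq, GRCm38.p6, chrX:48034804-48035103, minus strand, 250 bases before to 50 from the start) reads 5′ to 3′, with any core in capitals:
Apln: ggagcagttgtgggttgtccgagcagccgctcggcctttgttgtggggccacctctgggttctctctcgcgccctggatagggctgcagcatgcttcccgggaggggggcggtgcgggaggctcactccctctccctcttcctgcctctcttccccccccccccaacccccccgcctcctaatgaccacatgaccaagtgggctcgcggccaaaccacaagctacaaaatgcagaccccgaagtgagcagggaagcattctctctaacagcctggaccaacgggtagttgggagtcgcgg

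Mif encodes macrophage migration inhibitory factor, a cytokine. It measured 599.7, 568 and 532 CPM in hypoxia, against 505, 446 and 433 CPM in normoxia, with no overlap (1.23-fold, SE of the log2 fold change 0.09, edgeR adjusted p = 0.038). Mif has processed copies in the genome, between which estimated counts may be shared. This call was lost without hypoxia replicates 1 or 2 (edgeR adjusted p = 0.12 and 0.098) and without normoxia replicates 2 or 3 (0.13 and 0.12). With the replicate block it was kept (0.0007).

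Vegfa, the vascular endothelial growth factor, stood at 215, 222 and 203 CPM in hypoxia and at 198, 165 and 178 CPM in normoxia. The groups did not overlap, but the gap was small (log2 fold change 0.24, 95% interval 0.05 to 0.43) and the edgeR adjusted p was 0.076. Under the replicate block this p was 0.0088, and 0.020 when normoxia replicate 1 was left out. Adm, the gene of the vessel-relaxing peptide adrenomedullin, was scarce, at 1.40, 0.901 and 1.03 CPM in hypoxia and 0.990, 0.579 and 0.585 CPM in normoxia. Both groups had their highest value in replicate 1 and they overlapped. Its log2 fold change of 0.63 (SE 0.28) had an edgeR adjusted p of 0.14, and of 0.028 with the replicate block. Pgf, the placental growth factor gene, was as scarce (0.641 to 1.42 CPM in hypoxia, 0.543 to 1.24 CPM in normoxia) and its interval ran from -0.48 to 1.19.

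Car9 and Car12 encode membrane carbonic anhydrases that export acid, and Car9 is among the most widely used hypoxia markers. Here Car9 stood at 7.38, 6.76 and 6.42 CPM in hypoxia and at 7.86, 5.85 and 4.83 CPM in normoxia. The groups overlapped, and the highest of the 6 values was that of normoxia replicate 1 (log2 fold change 0.15, 95% interval -0.23 to 0.53, edgeR adjusted p = 0.59). Car12 ran from 8.64 to 10.8 CPM in hypoxia and from 9.23 to 12.9 CPM in normoxia, with a log2 fold change of -0.18 (95% interval -0.49 to 0.13). Angptl4, the gene of a secreted inhibitor of lipoprotein lipase, was at 10.1, 11.4 and 11.6 CPM in hypoxia and at 11.3, 13.3 and 13.6 CPM in normoxia. Its log2 fold change was -0.20 (edgeR adjusted p = 0.21, or 0.043 under the replicate block). Stc2, the gene of stanniocalcin 2, a secreted glycoprotein, had a log2 fold change of 0.19 (edgeR adjusted p = 0.18, and 0.038 without normoxia replicate 1).

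Lox, Stc1, Ppp1r3c and Nos2 fell below the filter in both groups. Lox, the gene of lysyl oxidase, a collagen cross-linking enzyme, had 0, 0 and 0 counts in hypoxia and 0, 1 and 1 in normoxia. Stc1, the gene of stanniocalcin 1, had 3, 8 and 6 counts in hypoxia and 7, 6 and 4 in normoxia. Nos2, the gene of inducible nitric oxide synthase, known from activated macrophages, had 1, 1 and 5 counts in hypoxia and 12, 9 and 4 in normoxia. None of these 4 genes had over 12 counts in a library. Their fold changes are not given, and fitted with no filter on low counts none passed (lowest edgeR adjusted p = 0.070, for Nos2).

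Genes of mitochondrial adaptation were higher in 2 of 3 cases, where 11.2% of all genes tested were higher. Ak4 encodes an adenylate kinase of the mitochondrial matrix, and it measured 74.5, 60.0 and 64.7 CPM in hypoxia against 53.3, 41.5 and 47.1 CPM in normoxia. All hypoxia values were above all normoxia values (1.40-fold, SE of the log2 fold change 0.11, edgeR adjusted p = 0.011). Fam162a, also named HGTD-P, encodes a mitochondrial protein linked to hypoxic cell death. It stood at 109.8, 114 and 132 CPM in hypoxia and at 86.0, 90.0 and 93.9 CPM in normoxia, again without overlap (1.32-fold, edgeR adjusted p = 0.0094). Higd1a, which encodes a small protein of the inner mitochondrial membrane, ran from 95.7 to 103.4 CPM in hypoxia and from 83.3 to 103.3 CPM in normoxia (log2 fold change 0.11, 95% interval -0.08 to 0.31).

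Among stress and growth genes, Ankrd37, which encodes an ankyrin repeat protein, had the second largest change of the list. It measured 80.6, 77.4 and 80.4 CPM in hypoxia against 45.8, 25.6 and 33.3 CPM in normoxia. The hypoxia libraries lay within 4 CPM of each other, while the normoxia libraries were spread out with replicate 1 on top. The difference was 2.28-fold (log2 fold change 1.19 with SE 0.17, edgeR adjusted p = 0.0011). Apln and Ankrd37 were the members that changed at least 2-fold and passed the test, as did 4.21% of all genes in the same direction. No member was lower by 2-fold or more, the furthest being Plin2 at 1.53-fold lower, while 1.91% of all genes were. In contrast to Apln, the promoter window of Ankrd37 (RefSeq, GRCm38.p6, chr8:45999801-46000100, minus strand) holds HIF cores, in capitals, at 3 places, in the middle of which a GCGTG and its complement CACGC overlap:
Ankrd37: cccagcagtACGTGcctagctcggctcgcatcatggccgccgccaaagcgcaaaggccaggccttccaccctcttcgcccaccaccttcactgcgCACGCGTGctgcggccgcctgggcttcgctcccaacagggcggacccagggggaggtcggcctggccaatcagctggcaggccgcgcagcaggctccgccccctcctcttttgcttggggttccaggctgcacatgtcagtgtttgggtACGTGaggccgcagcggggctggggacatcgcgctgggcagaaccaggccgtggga

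Ddit4 encodes REDD1, an inhibitor of the growth kinase complex mTORC1. Its level was 81.0, 78.6 and 77.0 CPM in hypoxia, against 139, 114 and 106 CPM in normoxia. Every hypoxia library lay below every normoxia library, at a log2 fold change of -0.60 with SE 0.10 (edgeR adjusted p = 0.0024). Ddit4 is also known to respond to ATF4, the transcription factor of the amino acid response. A list of 16 ATF4 response genes was chosen with their direction in these libraries known, so its counts are description and no test. On it 14 were lower in hypoxia, where 9.72% of all genes tested were. All 16 had negative fold changes, where 7926 of the 15591 genes tested did. Among them were Atf4 itself (log2 fold change -0.83, SE 0.09) and Mthfd2, a mitochondrial folate enzyme gene (-0.76, SE 0.08), with edgeR adjusted p of 0.00026 and 0.00016. Whether the lower Ddit4 level goes with these genes was not tested.

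Ndrg1, a stress-responsive gene of growth arrest, stood at 207, 184 and 178 CPM in hypoxia and at 203, 138 and 126 CPM in normoxia. Normoxia replicate 1 reached the hypoxia range, and the others did not. The log2 fold change was 0.28 (edgeR adjusted p = 0.25), and it was 0.52 without normoxia replicate 1 (0.0028). With the replicate block the edgeR adjusted p was 0.0078. Narf, which encodes a nuclear prelamin A recognition factor, measured 84.0, 85.2 and 83.5 CPM in hypoxia and 79.5, 66.2 and 69.2 CPM in normoxia. The groups did not overlap (log2 fold change 0.23, edgeR adjusted p = 0.067, or 0.0069 under the replicate block).

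Ero1l encodes an oxidase that forms disulphide bonds in the endoplasmic reticulum. It ranged widely, at 789, 643 and 610.1 CPM in hypoxia and 972, 613 and 570.0 CPM in normoxia. The groups overlapped fully, and within both groups replicate 1 was the highest. The log2 fold change was -0.08 with a 95% interval of -0.50 to 0.34. Ccng2, the gene of cyclin G2, which slows the cell cycle, had a log2 fold change of 0.06 (95% interval -0.24 to 0.36). Wsb1, which encodes a ubiquitin ligase subunit, had a log2 fold change of -0.11 (95% interval -0.33 to 0.12).

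Of the 4 transcriptional regulators, 2 were higher in hypoxia, where 11.2% of all genes tested were. Cited2 encodes a protein that competes with HIF-1 alpha for the coactivators p300 and CBP. It measured 55.4, 55.5 and 54.7 CPM in hypoxia against 44.2, 45.7 and 41.1 CPM in normoxia. The libraries of each group lay close together and the groups were apart (1.27-fold, SE of the log2 fold change 0.07, edgeR adjusted p = 0.0072). Rcor2, the gene of a corepressor that works with the histone demethylase LSD1, was at 4.36, 3.48 and 2.76 CPM in hypoxia and at 2.76, 1.92 and 1.72 CPM in normoxia. Its lowest hypoxia value fell just under the highest normoxia value, so the groups touched (1.66-fold, edgeR adjusted p = 0.046). The call of Rcor2 was lost without hypoxia replicates 1 or 2 (edgeR adjusted p = 0.15 and 0.094) and without normoxia replicates 2 or 3 (0.14 and 0.13), and it was kept with the replicate block (0.0011).

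Bhlhe40 encodes DEC1, a repressor that lymphocytes also induce on activation. It stood at 544, 486 and 467 CPM in hypoxia and at 756, 594 and 544 CPM in normoxia. The hypoxia libraries were all below the normoxia libraries, but hypoxia replicate 1 and normoxia replicate 3 were level when rounded (log2 fold change -0.34, 95% interval -0.61 to -0.07, edgeR adjusted p = 0.079). With the replicate block the edgeR adjusted p was 0.001, and without normoxia replicate 3 it was 0.038. Zfp395, which encodes a zinc finger protein, had a log2 fold change of 0.23 (edgeR adjusted p = 0.25, or 0.0070 under the replicate block).

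The 4 tested genes of lipid droplets and glycogen all had negative fold changes, as did 7926 of the 15591 genes tested, and Plin2 alone passed in the main fit. Without normoxia replicate 1 the log2 fold changes of Hilpda, Gbe1 and Gys1 were 0.095, 0.015 and -0.012. Plin2 encodes perilipin 2, the coat protein of lipid droplets, and measured 33.5, 32.7 and 37.9 CPM in hypoxia against 60.3, 51.5 and 47.4 CPM in normoxia. The groups did not overlap (log2 fold change -0.61 with SE 0.10, edgeR adjusted p = 0.0025). Hilpda, whose protein blocks the triglyceride lipase ATGL, was at 51.5, 37.8 and 39.0 CPM in hypoxia and 72.9, 39.7 and 40.4 CPM in normoxia. Replicate 1 stood out in both groups, and the log2 fold change of -0.25 had an interval of -0.75 to 0.24 (edgeR adjusted p = 0.47). Plin2, Angptl4 and Hilpda are also known as targets of the PPAR lipid sensors. On a list of 14 PPAR targets, 9 were tested, 2 were higher (Acadvl and Cpt1a, genes of fatty acid oxidation, log2 fold changes 0.44 and 0.28, edgeR adjusted p = 0.0063 and 0.023), and the other 7 did not pass, where 11.2% of all genes were higher and 9.72% lower. Under the replicate block 3 were higher and 1 lower, where 19.2% and 20% of all genes tested were. Whether the lower Plin2 level goes with these genes was not tested.

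Gys1 and Gbe1 encode glycogen synthase and the glycogen branching enzyme. Gys1 ran from 57.9 to 73.3 CPM in hypoxia and from 62.4 to 88.4 CPM in normoxia (log2 fold change -0.18, edgeR adjusted p = 0.40, or 0.018 under the replicate block). Gbe1 had a log2 fold change of -0.08 (95% interval -0.28 to 0.12). Ppp1r3c, which encodes a subunit that brings a phosphatase to glycogen, was among the untested genes, with 3, 1 and 1 counts in hypoxia and 8, 6 and 3 in normoxia.

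**Figure D2:**
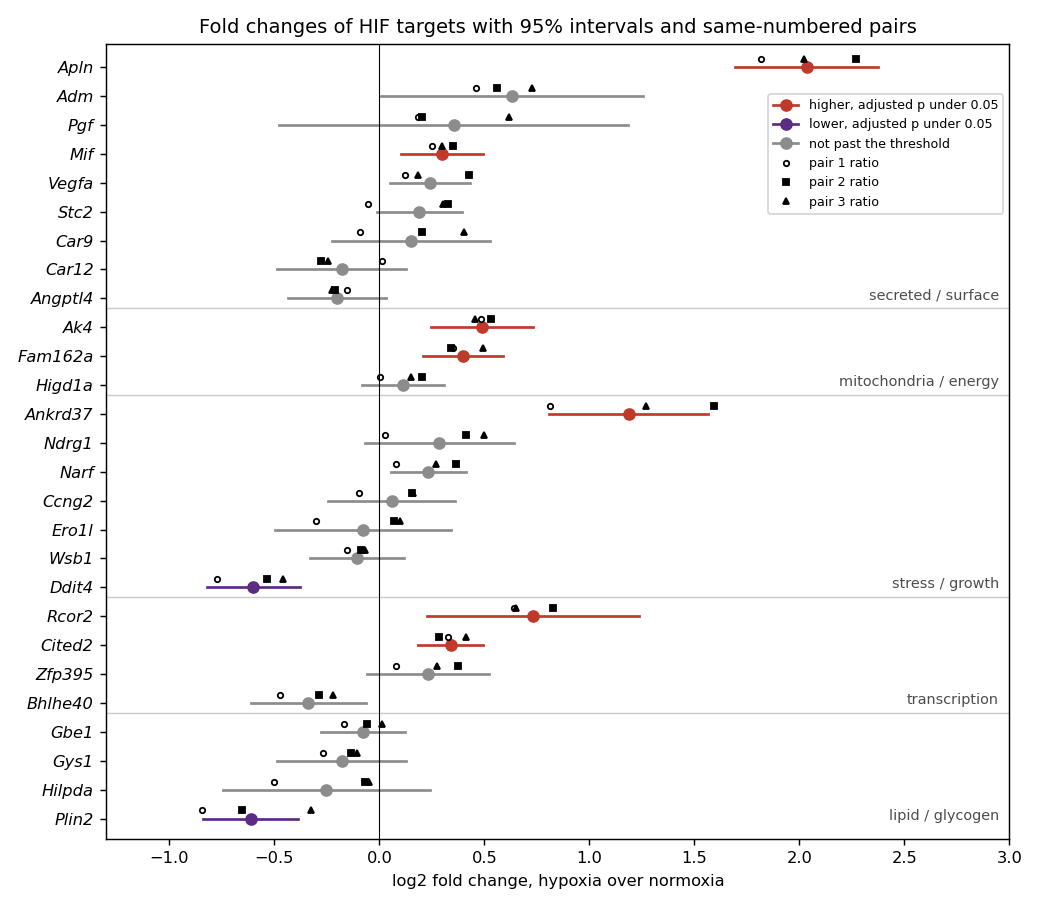
Log2 fold changes of hypoxia over normoxia with 95% intervals from the unpaired main fit, for the tested HIF targets by role. Above each is the ratio within each same-numbered pair. Apln (2.03) and Ankrd37 (1.19) lie apart from the other members, which run from -0.61 (Plin2) to 0.73 (Rcor2), and for most genes the pair 1 ratio is the lowest.

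Setting each hypoxia library against the normoxia library of the same number, 14 of the 27 genes were higher in all 3 pairs and 7 were lower in all 3. Over all tested genes these shares were 31% and 32.4%. By the overlap of whole groups, 8 members had every hypoxia library above every normoxia library and 3 had it below, where 19.6% and 18.7% of all genes did. Of the 8, Vegfa and Narf did not pass the test, nor did Bhlhe40 among the 3.

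Most members were highest in replicate 1. The log2 level in replicate 1 over the mean of replicates 2 and 3 had a median of 0.16 over the members in hypoxia and 0.33 in normoxia. For all tested genes these medians were -0.0047 in hypoxia and 0.015 in normoxia. Replicate 1 was the highest of its group for 19 of 27 members (70.4%) in hypoxia and 23 of 27 (85.2%) in normoxia, against 35.8% and 41.2% of all genes. The excess in normoxia reached 0.99 for Pgf, 0.86 for Hilpda, 0.72 for Ero1l and 0.62 for Ndrg1. Fam162a, Car12 and Angptl4 were the 3 members lower in replicate 1 than in the others in normoxia. Ankrd37 had an excess of 0.65 in normoxia and of 0.03 in hypoxia.

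**Figure D3:**
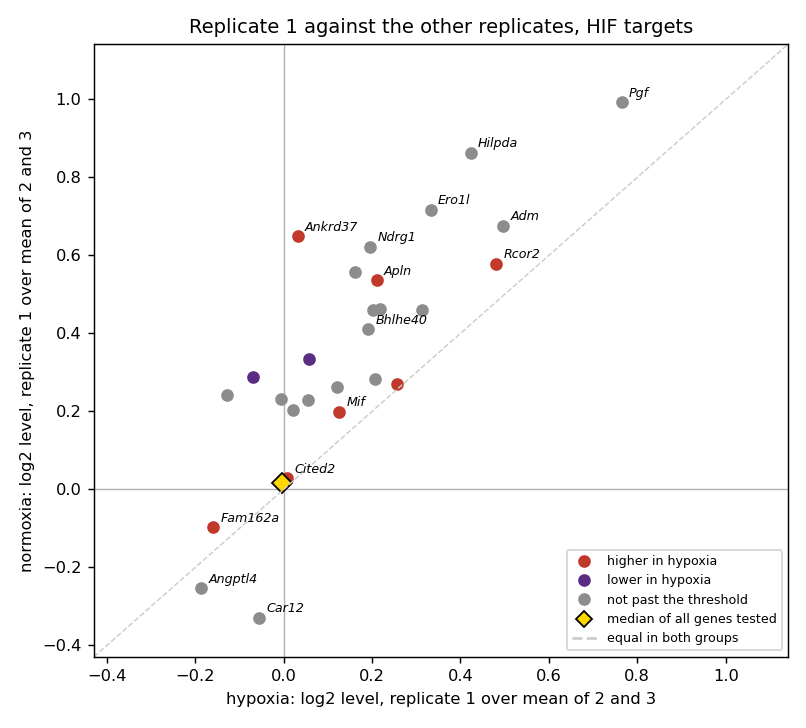
Log2 level of replicate 1 over the mean of replicates 2 and 3 in hypoxia (x axis) and normoxia (y axis), 1 point per tested HIF target, with the median of all tested genes as a diamond near zero. Most members lie above the dashed line of equality, with Ankrd37 at 0.03 in hypoxia and 0.65 in normoxia.

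Promoter windows of 300 bases were given by RefSeq (GRCm38.p6) for 24 of the 31 members, and a gene with several starts counted once if any of its windows held the motif. The cores ACGTG and GCGTG were searched on both strands, so that their complements CACGT and CACGC also counted, and an ACGTG inside CACGTG counted on both strands. ACGTG was found for 15 of 24 members (62.5%), against 28.9% of the 10558 tested genes matched by symbol and 21.8% of all 27025 genes in the table. GCGTG was found for 17 members (70.8%), against 54.4% and 35.2%, and either core for 20 (83.3%), against 66.0% and 46.7%. Both cores contain a CG pair. The median ratio of observed to expected CG pairs per window was 0.673 in members and 0.738 in tested genes, and their median GC contents were 64% and 60.3%. The part of base composition in these shares was not tested.

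ACGTG was held by 6 of the 7 members called higher, by both members called lower and by 6 of the 14 that did not pass. GCGTG was held by 4 of the 7 called higher, both called lower and 10 of the 14, and either core by 6, 2 and 11. Presence of a core is a match of letters only. No promoter window was used for Angptl4, Stc1, Lox, Ndrg1, Nos2, Bhlhe40 and Zfp395.

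The windows below are those of the other called members, around the core nearest to the transcript start. Either core was also found for 66.0% of the tested genes matched by symbol, so no link to direction is read from these windows. They are given 5′ to 3′ on the strand of the gene with cores in capitals, and positions count the first transcribed base as 0. Fam162a (chr16:36071543-36071613, minus strand, core at -17), Ak4 (chr4:101419220-101419290, plus strand), Cited2 (chr10:17723043-17723113, plus strand, core at -150), Rcor2 (chr19:7267332-7267402, plus strand, core at -27) and Mif (chr10:75860228-75860281, minus strand, core at 31) were higher. Plin2 (chr4:86670025-86670095, minus strand, core at -1) and Ddit4 (chr10:59951848-59951918, minus strand, core at -113) were lower.
Fam162a: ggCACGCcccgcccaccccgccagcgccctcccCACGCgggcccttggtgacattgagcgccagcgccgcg
Ak4: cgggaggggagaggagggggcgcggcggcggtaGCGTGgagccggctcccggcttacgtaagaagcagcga
Cited2: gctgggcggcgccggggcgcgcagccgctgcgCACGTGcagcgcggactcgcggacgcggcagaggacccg
Rcor2: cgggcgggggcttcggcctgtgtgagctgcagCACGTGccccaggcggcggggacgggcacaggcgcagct
Mif: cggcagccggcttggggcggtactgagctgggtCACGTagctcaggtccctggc
Plin2: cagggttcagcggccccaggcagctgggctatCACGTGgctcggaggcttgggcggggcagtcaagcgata
Ddit4: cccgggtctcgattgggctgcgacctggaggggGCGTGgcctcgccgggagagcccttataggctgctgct

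The remaining genes of the HIF pathway were taken as 1 list of 43 genes, all tested, with HIF subunits and oxygen sensors, glycolysis genes, oxygenases and mitophagy receptors. Of these, 19 were higher and 3 lower, where 11.2% and 9.72% of all genes were, with a median log2 fold change of 0.27. The replicate block gave 32 higher and 5 lower, where 19.2% and 20% of all genes were called. The oxygenases were the sub-list with the highest median (0.50), with 6 of 8 higher and all 8 positive, and P4ha1 and P4ha2, the genes of collagen prolyl hydroxylase subunits, at log2 fold changes of 1.08 (SE 0.08) and 0.54 (SE 0.08). Of 22 glycolysis genes 11 were higher and 1 lower, while the 3 mitophagy receptors did not pass. Under the replicate block 8 oxygenases, 17 glycolysis genes and all 3 mitophagy receptors were higher. The difference between these sub-lists and the members was not tested.

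Within the sensing machinery, Egln3, an oxygen-sensing hydroxylase gene that HIF induces, stood at 336, 304 and 319 CPM in hypoxia and at 156, 96.1 and 107 CPM in normoxia, without overlap (2.67-fold, edgeR adjusted p = 0.0003). Hif1a was at 57.5, 59.9 and 62.2 CPM in hypoxia and at 142, 136 and 126 CPM in normoxia, and Epas1 was lower too (log2 fold change -0.81, edgeR adjusted p = 0.010). Arnt2 was higher (log2 fold change 1.39, SE 0.11), while Arnt had a log2 fold change of 0.0037 (edgeR adjusted p = 0.98). Of the glycolysis genes, Pfkfb3 and Pfkm, which serve phosphofructokinase, were higher (log2 fold changes 0.88 and 0.40). Slc2a1, the glucose transporter gene, Pgk1 and Ldha had log2 fold changes of 0.30, 0.28 and 0.16 and did not pass (edgeR adjusted p = 0.12, 0.076 and 0.25). All 3 passed under the replicate block (edgeR adjusted p = 0.0028, 0.0074 and 0.043).

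**Figure D4:**
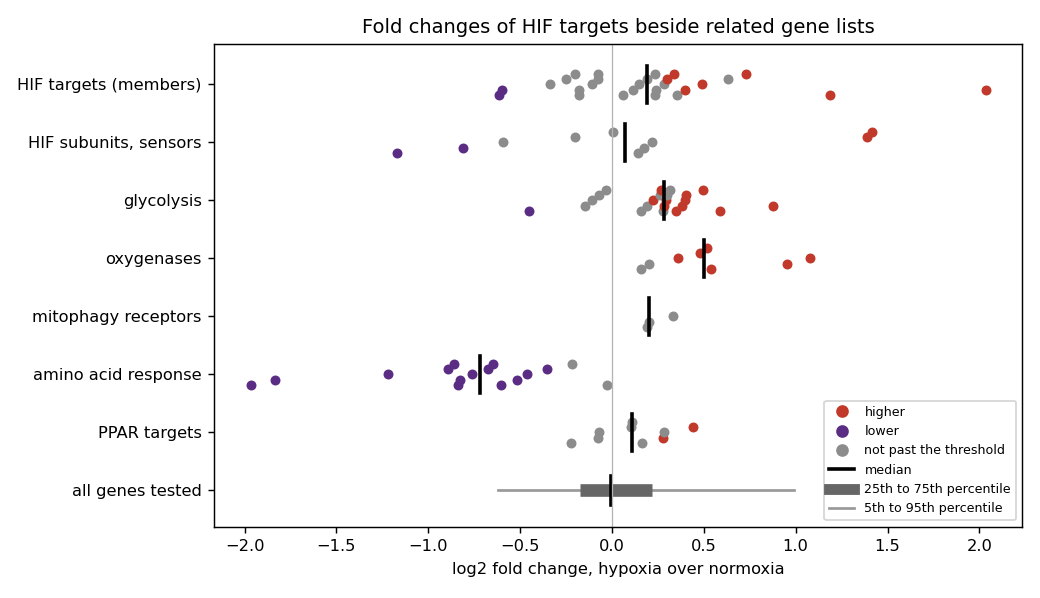
Log2 fold changes of hypoxia over normoxia for the tested HIF targets and related lists, with medians as bars. Each gene is 1 point coloured by its call in the unpaired main fit, above the percentiles of all tested genes. The HIF targets (median 0.19) spread on both sides of zero. The oxygenases (median 0.50) lie above zero and the amino acid response genes (median -0.72) below. The amino acid response list was chosen with the direction of its genes known.

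Some markers of other cell types differed between the oxygen levels, where 11.2% of all genes tested were called higher and 9.72% lower. The summed level of the 10 macrophage markers was 50.9 to 83.6 CPM in hypoxia and 15.5 to 29.2 CPM in normoxia, of which Cd68 made up 48.4 to 80.3 and 11.4 to 23.3 CPM, while C1qa and Marco were at 0 in all libraries and Adgre1 at 0.019 CPM or less. Of these markers 4 were tested, 2 were higher and 1 lower. Of the 2, the gene with a log2 fold change of 7.12 was near 0 in normoxia. It passed the count filter through hypoxia alone, so its call carries no weight. The 8 mast cell and basophil markers summed to 383 to 437 CPM in hypoxia and 237 to 259 CPM in normoxia, with 3 of 4 tested genes higher (Kit, Mcpt8 and Cpa3), Tpsb2 at 0 and Fcer1a at 0.018 CPM or less. The 8 T cell markers summed to 165 to 209 CPM in hypoxia and 111 to 129 CPM in normoxia, with 3 of 8 higher. Under the replicate block 4 T cell markers were higher and 0 lower, and 3 mast cell and basophil markers were higher and 1 lower. That fit called 19.2% of all genes higher and 20% lower. Neutrophil markers summed to 0.911 to 2.29 CPM in hypoxia and 0.238 to 0.343 CPM in normoxia. Only 2 of these 8 were tested. Both were near 0 in normoxia and passed the count filter through hypoxia alone, so their higher calls carry no weight. The part of these cell type markers in the HIF target levels was not tested. The sums of B cell markers (1 tested, higher in hypoxia) stayed at or below 1.31 CPM, those of stromal markers at or below 1.12 CPM and those of erythroid markers at or below 0.263 CPM in every library. The endothelial markers summed to 192 to 209.7 CPM in hypoxia and 234 to 281 CPM in normoxia, nearly all from Pecam1 (lower in hypoxia, edgeR adjusted p = 0.019), with Cldn5 and Emcn at 0.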

How the data were processed

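The authors deposited, per library and Ensembl gene, an estimated count and a log2 value named CPM. The submitters' processing notes name Trim Galore 0.6.4, kallisto 0.4.6, edgeR 3.17 and build GRCm39, with no order. The sources used here do not give how transcripts were summed to genes. The deposited log2 values equalled edgeR's log2 CPM of the deposited counts (prior count 2, largest difference 5.33e-15) and were not tested. Since kallisto divides reads by likelihood, near-identical genes share counts.

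Estimated counts were rounded. Symbols came from GENCODE M21, which names 52029 of 56953 IDs. After filterByExpr (minimum count 10, minimum total 15) 15591 genes were scaled with TMM and tested with edgeR 4.0.16 (quasi-likelihood), hypoxia against normoxia, threshold 0.05. SE was taken as the fold change's log2 value divided by F's square root, and pair ratios used CPM plus 0.1. limma 3.58.1 (voom) and DESeq2 1.42.0 were alternatives. The fit was tested on simulated data.

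After subtracting group means, libraries sharing a replicate number correlated at 0.47, 0.33 and 0.30 across genes, above the criterion of 0.1. The replicate numbers of the labels were therefore taken as pairing them. The main fit left this pairing out, and the replicate block used it. Among the 6 combinations of unlike numbers, hypoxia 2 with normoxia 3 also passed it (0.12) and the others were negative. Libraries of a group differed beyond sampling noise, with a mean chi-square of 12.4 to 59.2 per gene. All members are named. Of other lists, Hif1a, Egln3, Slc2a1, Pgk1, Ldha and up to 2 genes with the smallest p per list were named by rule, and any further gene was picked with its values in view. Members and lists were chosen with earlier results of these data known.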

Additional observations from a re-analysis of the deposited data

How the results depend on the processing

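Apln, Ankrd37, Ak4, Fam162a, Cited2, Ddit4 and Plin2 kept their direction and passed the threshold in all 14 alternatives, with edgeR, DESeq2 or limma adjusted p of at most 0.048. DESeq2 size factors, limma-voom and the stricter or absent filter left the counts of called members within 1.5 times of the main values of 7 higher and 2 lower. With the replicate block, 12 members were higher and 5 lower, 2988 of all genes were higher and 3120 lower, and of the HIF pathway genes 32 were higher and 5 lower. When only library totals were scaled, there were 998 lower genes and 29 higher pathway genes, and the log2 fold changes of Gbe1 and Ero1l, not called, were then 0.0085 and 0.012. Without both replicate 1 libraries 12 members were higher, and the log2 fold change of Ero1l was 0.082.

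Leaving out 1 library at a time, 5 to 13 members were called higher and 2 to 3 lower (edgeR), 1146 to 1980 of all genes higher and 804 to 1636 lower, and 13 to 28 pathway genes higher and 2 to 3 lower. The median log2 fold change of the tested members ran from 0.09 (without hypoxia replicate 1) to 0.31 (without normoxia replicate 1). Uncalled members changed sign, from -0.0024 to 0.36 for Car9, -0.41 to 0.095 for Hilpda, -0.14 to 0.015 for Gbe1, -0.22 to 0.20 for Ero1l and -0.063 to 0.23 for Ccng2. The cause was not tested. The depth limits what can be said of Lox, Stc1, Nos2 and Ppp1r3c.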

Other observations

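Receptors, relatives and partners of the HIF targets were read from a list made after the values of the targets were known. Of 8 receptor genes tested 3 were higher and 2 lower, and of 20 relatives tested 5 were higher and 1 lower. Among these 5, Ddit4l was tested through its hypoxia counts alone, so its call carries no weight. Of 10 further lipid and glycogen genes tested 2 were higher and 1 lower. Over all genes tested 11.2% were higher and 9.72% lower, and mostly genes that passed are named below. The apelin receptor gene Aplnr was at 0 in 5 of 6 libraries and had 1 count in normoxia replicate 1, so it was not detectable above 1 count at this depth. Among receptor genes for adrenomedullin, Calcrl (2.87, 3.24 and 3.01 CPM in hypoxia against 6.05, 6.17 and 4.73 CPM in normoxia) and its partner Ramp3 (0.543, 0.606 and 0.747 CPM in hypoxia against 1.12, 1.36 and 1.35 CPM in normoxia) were lower in hypoxia (edgeR adjusted p = 0.0021 and 0.0085). Ramp2, a relative of Ramp3 also on the receptor list, was not called lower. Ramp1, another relative, which is not counted here as an adrenomedullin receptor gene, was higher (log2 fold change 0.74, edgeR adjusted p = 0.035). Cxcr4, which encodes a chemokine receptor that also binds MIF, measured 12.9, 12.4 and 8.88 CPM in hypoxia and 8.42, 6.12 and 6.67 CPM in normoxia (edgeR adjusted p = 0.016), and Ddt, the relative of Mif, had a log2 fold change of 0.29 (edgeR adjusted p = 0.028).

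Among relatives of other members, Ccng1, the p53-responsive relative of Ccng2, was at 312, 287 and 309.6 CPM in hypoxia against 226, 189 and 207 CPM in normoxia (log2 fold change 0.55 with SE 0.09, edgeR adjusted p = 0.0019). Cited4, the relative of Cited2, was higher as well (log2 fold change 0.70 with SE 0.15, edgeR adjusted p = 0.0096). Ddit4l, the relative of Ddit4, was scarce, at 0.561, 0.398 and 0.267 CPM in hypoxia against 0.114, 0.127 and 0.165 CPM in normoxia (edgeR adjusted p = 0.017). Its normoxia libraries lay under the filter's minimum count, so it was tested through its hypoxia counts alone. No contrast with Ddit4 is drawn from this call. The cytosolic carbonic anhydrase gene Car13 was lower (log2 fold change -1.58 with SE 0.24, edgeR adjusted p = 0.0015), while Car2 stood between 539.8 and 643 CPM over all 6 libraries (log2 fold change -0.03). Around glycogen, the glycogen phosphorylase gene Pygl (99.0, 109 and 114 CPM in hypoxia against 84.6, 77.6 and 66.6 CPM in normoxia) was higher (edgeR adjusted p = 0.0064), and its relative Pygb did not pass. Abhd5, which encodes the activator of the lipase ATGL, was lower (log2 fold change -0.29, edgeR adjusted p = 0.040), and Pnpla2, the gene of ATGL itself, did not pass (log2 fold change 0.09).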
